A study of Rattus norvegicus with 30 samples.

Results

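The transcriptome of rat hippocampal neurons was compared after 24 h with monomethyl fumarate (MMF) at 30 µM and after 24 h with its vehicle, DMSO at 0.2%. The comparison covered every protein-coding gene of the deposited table, 18753 of the 19923 genes listed, and 14038 of these passed the filter on low counts and were tested. The cells were dissociated from the hippocampi of wild-type Wistar rat embryos of day 18 and treated after 7 days in culture, and each group held 3 libraries numbered 1 to 3, from independent experiments. The whole series held 30 libraries in 10 groups, which covered MMF, dimethyl fumarate (DMF, 30 µM), cannabidiol and the vehicles DMSO and ethanol at 4 h and 24 h. Poly(A) RNA of the whole culture was sequenced with no sorting, so that for each gene a change in the number of cells of a type and a change in the RNA per cell cannot be told apart.

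MMF is the monomethyl ester of fumaric acid and the form to which DMF, an oral drug for multiple sclerosis, is converted in the body. Fumarate esters react with cysteines of Keap1, the adaptor that normally sends the transcription factor Nrf2 (gene Nfe2l2) to degradation, and Nrf2 that escapes enters the nucleus, pairs with a small Maf protein and binds antioxidant response elements in the promoters of genes for glutathione synthesis, quinone reduction, heme breakdown and NADPH supply. MMF is also a ligand of the hydroxycarboxylic acid receptor 2, encoded by Hcar2.

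The promoters of 5 genes are shown because the genes are DEGs of this comparison, that is, they passed the test described below, and their promoters hold the 9-base sequence TGACTCAGC, a common form of the antioxidant response element, on one of the strands. Each run is the 250 bases before the annotated start of the gene, 5′ to 3′ on the gene's own strand, from RefSeq on the build GRCr8, and capitals mark the match. The windows lie at chr1:210769706-210769955 on the minus strand (Gstp1), chr8:96540245-96540494 on the minus strand (Me1), chr5:135383656-135383905 on the plus strand (Prdx1), chr19:10838709-10838958 on the minus strand (Mt2A) and chrX:33851050-33851299 on the minus strand (Pir).
Gstp1: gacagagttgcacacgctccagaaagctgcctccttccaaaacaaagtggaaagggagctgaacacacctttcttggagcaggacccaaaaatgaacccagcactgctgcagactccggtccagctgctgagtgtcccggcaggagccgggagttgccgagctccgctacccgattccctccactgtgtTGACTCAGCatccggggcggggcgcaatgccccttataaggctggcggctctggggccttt
Me1: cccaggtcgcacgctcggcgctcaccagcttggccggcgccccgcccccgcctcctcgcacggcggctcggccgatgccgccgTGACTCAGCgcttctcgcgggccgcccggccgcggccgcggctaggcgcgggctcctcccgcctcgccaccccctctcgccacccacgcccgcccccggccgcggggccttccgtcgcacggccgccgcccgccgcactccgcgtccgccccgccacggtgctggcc
Prdx1: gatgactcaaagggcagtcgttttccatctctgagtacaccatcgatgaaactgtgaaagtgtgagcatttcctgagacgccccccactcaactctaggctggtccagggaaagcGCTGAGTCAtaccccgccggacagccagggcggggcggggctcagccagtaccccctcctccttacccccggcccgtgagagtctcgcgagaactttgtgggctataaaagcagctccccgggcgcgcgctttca
Mt2A: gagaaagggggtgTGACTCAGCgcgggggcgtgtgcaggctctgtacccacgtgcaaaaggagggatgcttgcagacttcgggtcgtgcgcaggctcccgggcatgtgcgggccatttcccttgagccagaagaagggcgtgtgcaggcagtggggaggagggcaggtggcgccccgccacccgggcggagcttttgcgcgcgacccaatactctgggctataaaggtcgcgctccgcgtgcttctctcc
Pir: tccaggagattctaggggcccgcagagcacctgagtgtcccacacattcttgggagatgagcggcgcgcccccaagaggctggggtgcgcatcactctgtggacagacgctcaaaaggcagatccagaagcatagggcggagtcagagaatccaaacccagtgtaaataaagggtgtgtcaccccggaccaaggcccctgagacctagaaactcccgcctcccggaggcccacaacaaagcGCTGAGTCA
The match began 61 bases before the start in Gstp1, 167 in Me1, 135 in Prdx1, 237 in Mt2A and 9 in Pir, and in Prdx1 and Pir it lay on the opposite strand. TGACTCAGC contains the AP-1 sequence TGACTCA, and it was found on either strand in 126 of 33469 promoter windows of the same 250 bases in the genome (0.376%), against 4.05% for TGACTCA and 10.1% for the looser form TGACNNNGC. Of the 171 DEGs higher with MMF, 131 (76.6%) had a window. TGACTCAGC was in 5 of these 131 (3.82%) and in 44 of the 10971 tested genes that had a window (0.401%). In the same order, TGACTCA was in 9.92% and 3.19%, and the looser TGACNNNGC in 13.0% and 13.2%. The differences between these shares were not tested. A match is a description of the sequence and says nothing of occupancy, and Pir was chosen after its values had been seen.

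The 3 DMSO libraries held between 15108132 and 21995675 reads on genes and the 3 MMF libraries between 20523654 and 22423505. Libraries of the same number deviated together from their group means (correlation across genes 0.203 to 0.523 for the 3 pairs, against -0.431 to 0.0559 for libraries of different numbers), so the number was kept as a block. Deviations from a mean cancel within a group, so the values for different numbers were low in part by construction. The cultures held both neuronal and glial RNA in all 6 libraries. Summed over 9 neuron markers, the level was 4654 to 5214 CPM (reads scaled to a common library size) with DMSO and 4517 to 4972 CPM with MMF. The 6 astrocyte markers summed to 3353, 3940 and 2326 CPM in DMSO libraries 1 to 3 and to 3834, 4449 and 2254 CPM in MMF libraries 1 to 3, so library 3 was low in both groups. Markers of microglia stayed at or below 2.64 CPM and those of endothelium at or below 3.30 CPM in sum. None of the 9 neuron, 6 astrocyte, 1 microglia and 2 endothelial markers tested was a DEG, although without library pair 3, 3 of the astrocyte and 1 of the neuron markers were called. Other marker lists did hold DEGs, among them Pdgfra of 7 oligodendrocyte lineage markers (lower) and Col1a1 and Col1a2 of 5 fibroblast and meningeal markers (higher). The oligodendrocyte lineage markers summed to 742 to 894 CPM with DMSO and to 799 to 823 CPM with MMF.

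After 24 h, 195 protein-coding genes were DEGs (adjusted p below 0.05), which is 1.39% of the 14038 tested. Of these, 171 rose (1.22%) and 24 fell (0.171%) with MMF. The changes were small: the median log2FC was 0.41 over the DEGs that rose (range 0.18 to 1.69) and -0.24 over those that fell (-0.41 to -0.18), while the median over all genes tested was 0.00. A log2FC above 1 was reached by 13 of the DEGs that rose, and no DEG fell by more than 0.5 on the log2 scale. The 3 pairs moved in the same direction for each of the 195 DEGs, as they did for 35.3% of all genes tested. In 78 DEGs, 61 that rose and 17 that fell, the 3 MMF libraries did not overlap the 3 DMSO libraries, which held for 9.74% of all genes tested.

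The calls rested on the block. Without it limma called 1 gene, Gstp1. DESeq2 on the recovered reads called 51 genes with the block (0.363%) and 8 without it, among them Nqo1, Gsta1, Gstp1 and Hmox1, and all of these were among the 195. With the spread estimated from all 30 libraries, 3 genes remained DEGs, Me1, Gsta1 and Aox1. Pair 3 gave the smallest difference for 125 of the 171 DEGs that rose (73.1%, against 38.4% of all genes tested), with a median log2 ratio of 0.27 in pair 3 against 0.49 in pair 1 and 0.47 in pair 2. Without library pair 3, 516 genes were called, in a fit whose spread comes almost wholly from the trend across genes.

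A wider background, chosen after seeing the data, was taken from the 9 other vehicle libraries of the series, which were DMSO at 4 h and ethanol at 4 h and 24 h. For 6 of the 171 DEGs that rose, all 3 MMF libraries lay above all 12 vehicle libraries on a common CPM scale (Gstp1, Txnrd1, Osgin1, Ddit4l, Cdc25b and Ppp1r1b), as did 0.342% of all genes tested. For 2 of the 24 DEGs that fell, Atrx and Ash1l (not called with any 1 library pair left out), the 3 MMF libraries lay below all 12 vehicle libraries, which held for 0.328% of all genes tested. The other vehicle libraries differ from the MMF libraries in solvent or time, so that these counts describe how far vehicle cultures varied and are not a test of MMF.

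**Figure D1:**
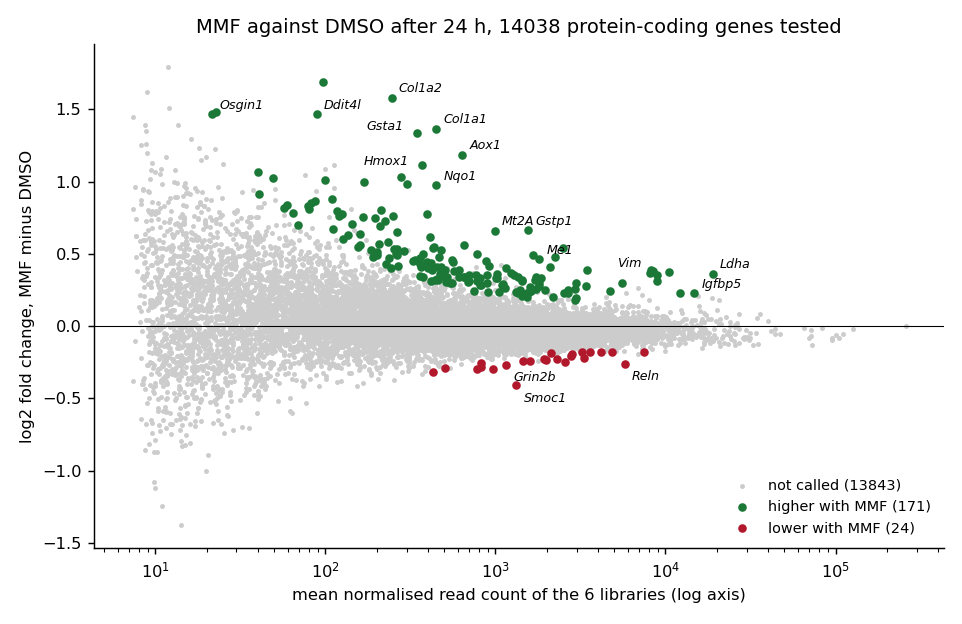
Log2FC (MMF minus DMSO, 24 h) of the 14038 protein-coding genes tested against the mean normalised read count of the 6 libraries on a log axis, with the 171 DEGs that rose in green, the 24 that fell in red and the others in grey. The DEGs that rose reach a log2FC of 1.69, while those that fell go no lower than -0.41.

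Enzymes that detoxify electrophiles held the smallest adjusted p-values of the comparison. Nqo1 encodes a quinone reductase that uses NADPH (mRatBN7.2 chr19:35295573-35310557). Its normalised read count was 324, 298 and 282 in DMSO libraries 1 to 3 and 641, 638 and 509 in MMF libraries 1 to 3. The groups did not overlap, and Nqo1 rose by a log2FC of 0.97 ± 0.07 (SE, n = 3 pairs, adjusted p = 3.3e-06), or 1.96-fold. On the common CPM scale Nqo1 was at 26.4 to 33.1 CPM with MMF and reached 31.0 CPM among the 12 vehicle libraries. Gsta1, a glutathione S-transferase (chr9:23703477-23720121), was at 266, 171 and 154 with DMSO and at 610.4, 509 and 366 with MMF, a log2FC of 1.34 ± 0.09 (adjusted p = 1.09e-06). Its level was 19.0 to 31.5 CPM with MMF and reached 24.0 CPM among the 12 vehicle libraries. Gstp1, the pi-class transferase whose promoter is printed above (mRatBN7.2 chr1:201321672-201340226), varied least within groups. Its counts were 1209.5, 1251 and 1149 with DMSO and 1942, 2009 and 1773 with MMF, a log2FC of 0.66 ± 0.05 (adjusted p = 1.09e-06), and it alone kept an adjusted p below 0.05 without the block (0.0454).

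Of the 16 measured genes for conjugation and quinone reduction, 6 rose, none fell and 10 did not pass the test, with a median log2FC of 0.33. The other 3 that rose were transferases with smaller changes or lower counts: Gstm5 (log2FC 0.35), Gstm1 (0.32) and the membrane-bound Mgst1. Mgst1 was at 56.2, 61.8 and 64.0 with DMSO and at 119, 125 and 93.2 with MMF, so the groups did not overlap (log2FC 0.87, adjusted p = 0.0118). DESeq2 with the block did not call Gstm5 (adjusted p = 0.0825) or Mgst1 (0.13). The Gsta and Gstm genes have near-identical copies, and how reads shared between copies were counted is not given in the sources used here, so the values of single members of these families are uncertain.

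Aox1, an aldehyde oxidase that also oxidises aromatic heterocycles (chr9:59579649-59658770), rose from 470.0, 409.6 and 272 to 1034, 1109 and 539 (log2FC 1.19 ± 0.08, adjusted p = 1.09e-06). Every MMF library was above every DMSO library, although library 3 was the lowest of both groups. In the glutathione and cystine list, 2 of the 8 genes measured rose and none fell, with a median log2FC of 0.09. Slc7a11, the cystine importer xCT, was at 180.0, 191 and 116 with DMSO and at 335, 365 and 149.6 with MMF. The third MMF library lay within the DMSO range, and the log2FC was 0.73 ± 0.12 (adjusted p = 0.00544). Gclc, the catalytic subunit of the ligase that starts glutathione synthesis, rose by a log2FC of 0.36 (adjusted p = 0.00428), while its modifier subunit Gclm had a log2FC of 0.08 (adjusted p = 0.686).

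Of the 6 thioredoxin and peroxiredoxin genes, 2 rose: Txnrd1, thioredoxin reductase, by a log2FC of 0.23 (adjusted p = 0.013), and Prdx1, a peroxiredoxin that reduces peroxides, by 0.30 (adjusted p = 0.00324). The thioredoxin gene Txn1 lay just outside the threshold (log2FC 0.22, adjusted p = 0.0503). Srxn1, which restores overoxidised peroxiredoxins, was at 33.2, 32.3 and 23.5 with DMSO and at 44.7, 71.9 and 45.7 with MMF. Its groups did not overlap, yet its log2FC of 0.83 had an adjusted p of 0.0809 at these low counts.

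Hmox1, heme oxygenase 1 (chr19:13467244-13474079), was the 1 DEG among the 8 heme and iron genes. Its counts were 232, 274 and 178 with DMSO and 514, 677 and 332 with MMF, a log2FC of 1.11 ± 0.09 (adjusted p = 4.56e-06), and the groups did not overlap. On the common CPM scale Hmox1 was at 17.2 to 34.9 CPM with MMF and reached 22.7 CPM among the 12 vehicle libraries. The iron-storage gene Fth1 of the same list had a log2FC of 0.08 (adjusted p = 0.531). Me1, the malic enzyme that makes NADPH, was the 1 DEG of the 5 measured NADPH and pentose phosphate genes and rose from 1793, 1427 and 1328 to 2532, 1958 and 1797 (log2FC 0.46 ± 0.04, adjusted p = 4.54e-05).

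Among 8 genes for Nrf2, its partners, repressors and feedback, Osgin1, an oxidative-stress-induced growth inhibitor, was the 1 DEG. It was at 14.9, 8.07 and 10.4 with DMSO and at 38.0, 32.1 and 26.0 with MMF, so the groups did not overlap (log2FC 1.47 ± 0.29, adjusted p = 0.0206), but it was not called without library pair 2 (adjusted p = 0.0709). The mRNA of Nrf2 itself, Nfe2l2, had a log2FC of 0.23 (adjusted p = 0.236) and that of Keap1 one of -0.04 (adjusted p = 0.81). Over the 6 lists together, 13 of 51 genes measured rose, none fell, 45 had a log2FC above 0 and the median log2FC was 0.13. Over all genes tested, 1.22% rose, 50% had a log2FC above 0 and the median was 0.00. DESeq2 with the block called 10 of the 51. Neither Hcar2 nor its paralog Hcar1 had a read in any of the 6 libraries, which allows up to 3 reads per library.

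**Figure D2:**
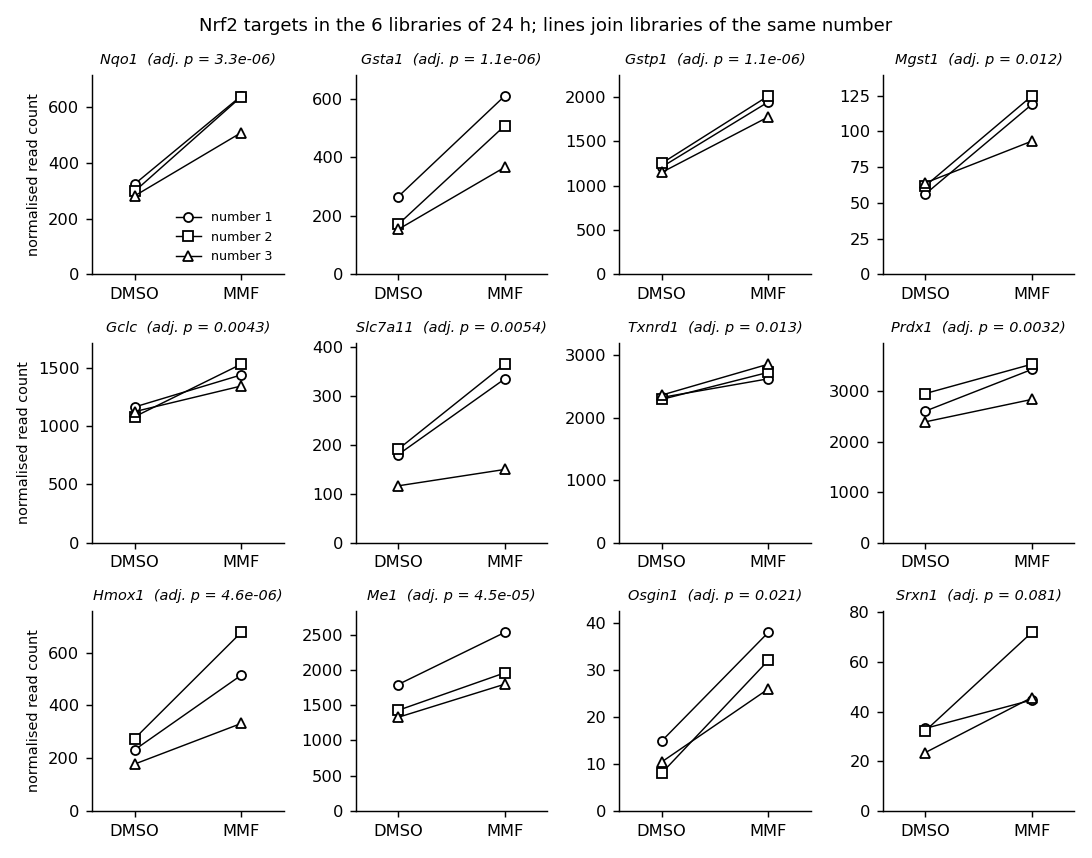
Normalised read counts of 12 Nrf2-linked genes in the 3 DMSO and 3 MMF libraries of 24 h, with lines joining libraries of the same number (circle 1, square 2, triangle 3) and each axis starting at 0. The lines of Nqo1, Gsta1, Gstp1 and Hmox1 rise in each pair with no overlap between groups, while Slc7a11 rises little in pair 3 (116 to 149.6).

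Ddit4l, an inhibitor of mTORC1 signalling, rose from 58.5, 33.2 and 49.6 to 139.8, 151 and 100.4 (log2FC 1.47 ± 0.20, adjusted p = 0.00157), above every vehicle library of the series. Cyp1b1, a cytochrome P450, and Pla2g7, which hydrolyses platelet-activating factor, were further DEGs that rose (log2FC 0.78 and 0.80), and both were picked out after their values had been seen.

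Metallothioneins, small cysteine-rich proteins that bind zinc and copper, rose in part. Mt2A was at 671, 1059 and 559 with DMSO and at 1279, 1591 and 771 with MMF (log2FC 0.66 ± 0.07, adjusted p = 0.000208), and Mt1 had a log2FC of 0.49 (adjusted p = 0.0118, and 0.157 by DESeq2 with the block). In both genes library 2 was the highest and library 3 the lowest of each group, and the groups overlapped. The brain isoform Mt3, chosen after its value had been seen, lay just outside the threshold (log2FC 0.20, adjusted p = 0.0601). The zinc exporters differed little, Slc30a1 with a log2FC of 0.03 and Slc30a2, at under 33 counts, with 0.40 (adjusted p = 0.566). Of the 9 genes of this list 2 rose and none fell. The metallothionein copies resemble each other closely, so reads may be split between them.

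Over all genes tested, 1.22% rose and 50% had a log2FC above 0. Among genes for glucose uptake and glycolysis, 7 of 20 measured rose, none fell, 17 had a log2FC above 0 and the median was 0.22. They were Slc2a1, the glucose transporter GLUT1 (log2FC 0.40), Hk2, a hexokinase (0.48), and the enzymes encoded by Gpi (0.23), Tpi1 (0.37), Pgk1 (0.37), Pkm (0.31) and Ldha (0.36), which run from the isomerisation of glucose 6-phosphate to the making of lactate. Pgk1 was at 6100.3, 9539.6 and 5546 with DMSO and at 9493, 11292 and 6493 with MMF. The groups overlapped, because library 2 was high and library 3 low with and without MMF, and the pairs gave the difference. The median log2 ratio of the 20 genes was 0.39 in pair 1, 0.17 in pair 2 and 0.05 in pair 3. Ldha went from 14764, 21826 and 12886 to 24140.3, 25692 and 14245 (adjusted p = 0.026). DESeq2 with the block called 3 of the 7, and lost Hk2 (adjusted p = 0.0989), Pgk1 (0.621), Tpi1 (0.959) and Ldha (1). Leaving out 1 library pair raised the count over all genes as well, and without pair 3 limma called 11 of the 20.

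Of the genes that hypoxia-inducible factors are known to switch on, all 10 measured had a log2FC above 0, with a median of 0.40, and 4 rose: Vegfa, the vascular endothelial growth factor, Bnip3, a receptor for mitophagy, P4ha1, a collagen prolyl hydroxylase, and Adm, which encodes the peptide adrenomedullin. Among all genes tested, 50% had a log2FC above 0 and 1.22% rose. Vegfa was at 7144, 9412 and 4539 with DMSO and at 9951, 12686 and 5399 with MMF (log2FC 0.39 ± 0.05, adjusted p = 0.000514). Adm was at 75.7, 159.5 and 43.1 with DMSO and at 151, 217 and 78.8 with MMF (log2FC 0.76, adjusted p = 0.0145). In both genes library 2 was the highest and library 3 the lowest of each group. Without library pair 2 or 3, 7 of the 10 were called, and DESeq2 with the block called 3. The level of Vegfa in other vehicle cultures shows how wide the background was, with 162 to 178 CPM for ethanol and 234 to 488 CPM for DMSO at 24 h, and 280 to 655 CPM with MMF. The astrocyte sums given above had the same order, library 2 highest and library 3 lowest, and their part in these values was not tested.

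**Figure D3:**
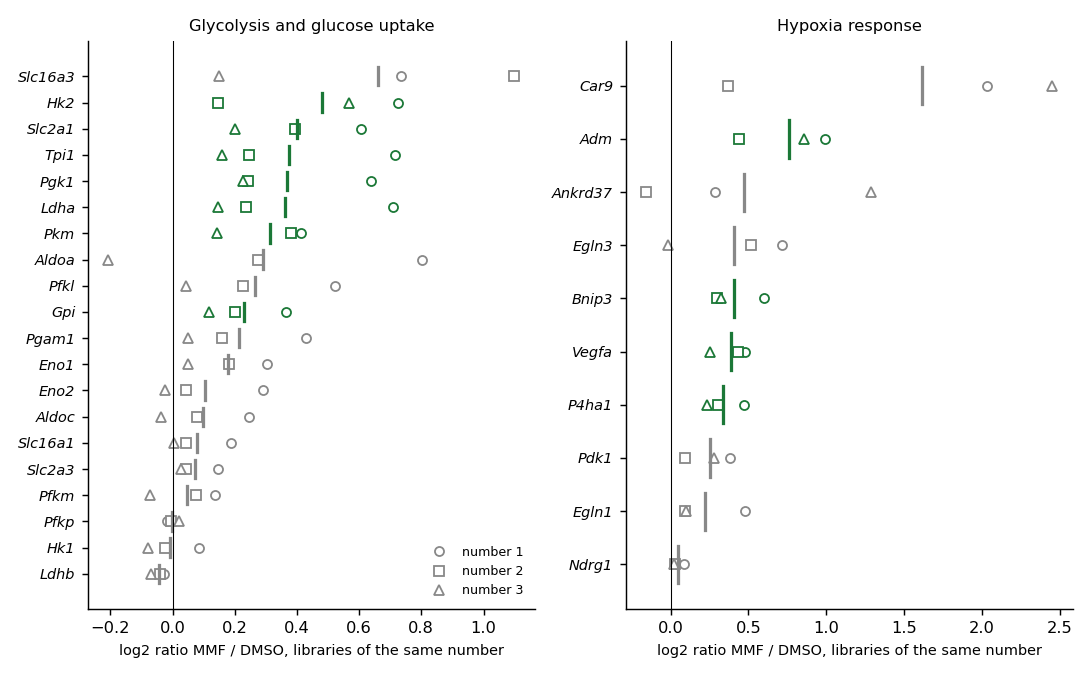
Log2 ratio of MMF to DMSO at 24 h for each pair of libraries of the same number (circle 1, square 2, triangle 3) and the fitted log2FC (bar) for 20 glycolysis and 10 hypoxia genes, with DEGs in green and the others in grey. In the glycolysis genes pair 1 lies farthest to the right (median 0.39) and pair 3 nearest to 0 (median 0.05).

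Genes of the extracellular matrix also rose, and were put into lists after this had been seen. In a list of 29 genes for matrix crosslinking and small proteoglycans, 28 were measured. Of these, 15 rose (against 1.22% of all genes tested) and none fell, with a median log2FC of 0.36, and DESeq2 with the block called 4. They held the small proteoglycans Bgn (log2FC 0.56) and Fmod (0.99), the basement-membrane proteoglycan Hspg2 (0.50), fibronectin, Fn1 (0.49), the lysyl hydroxylase Plod2 (0.44) and the growth factor binder Ccn2 (1.01, adjusted p = 0.0182, and 0.0672 without library pair 1). Among the 15 were also P4ha1, counted above in the hypoxia list, and Tnc, counted again in the radial glia list below. Of 41 measured collagen genes 6 rose. The count was 4 without library pair 2, 10 without pair 3 and 1 by DESeq2 with the block. The highest of the 6 were Col1a2 (log2FC 1.58), Col1a1 and, at under 46 counts, Col8a1 (1.49, not called without library pair 1 or 2). Col1a1, the alpha 1 chain of type I collagen (chr10:79883622-79900624), was at 165, 252 and 317 in DMSO libraries 1 to 3 and at 967, 562 and 418 in MMF libraries 1 to 3. The groups did not overlap, but the order of the libraries was opposite in them, and the log2FC was 1.36 ± 0.24 (adjusted p = 0.00958; 0.717 by DESeq2 with the block).

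Vehicle cultures alone spanned a wider range of Col1a1 than the difference. Its level was 8.47 to 16.4 CPM for DMSO at 24 h, 18.2 to 43.6 CPM for ethanol at 24 h and 18.2 to 83.4 CPM for DMSO at 4 h, against 21.7 to 49.97 CPM with MMF. Among the 12 vehicle libraries Fmod reached 67.2 CPM, Ccn2 24.3 CPM and Bgn 40.4 CPM. With MMF they reached 25.9, 9.43 and 63.5 CPM. The 5 fibroblast and meningeal markers summed to 42.0, 65.5 and 62.1 CPM with DMSO and to 104, 88.0 and 71.4 CPM with MMF, and of these Col1a1 and Col1a2 rose, while Dcn, Lum and Pdgfrb were not DEGs (log2FC between -0.21 and 0.10). Sums of this list moved with the collagens, which are part of it, and the part of fibroblast number in the result was not tested.

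Several genes of radial glia and astrocyte precursors also rose, in a list that was likewise made after results had been seen. Of 22 measured, 6 rose and none fell, against 1.22% and 0.171% of all genes tested. The median log2FC was 0.10, and DESeq2 with the block called 3. Vim, the intermediate filament vimentin, was at 7294, 8581 and 6007 with DMSO and at 9305, 11601 and 7725 with MMF (log2FC 0.38 ± 0.04, adjusted p = 0.000121). Id3, an inhibitor of basic helix-loop-helix factors, went from 177, 195 and 148 to 509, 467 and 185 (log2FC 1.03, adjusted p = 0.00427), and Hopx from 94.0, 138 and 95.3 to 270.0, 297 and 124 (log2FC 1.00). In both genes pairs 1 and 2 rose strongly and pair 3 little. The 12 vehicle libraries spanned 7.62 to 60.6 CPM for Id3, 4.82 to 17.5 CPM for Hopx and 310 to 801 CPM for Vim. With MMF the ranges were 9.62 to 26.3, 6.41 to 15.3 and 401 to 599 CPM. Other genes that define these cells did not pass the test, Sox2 with a log2FC of -0.05, Nes, nestin, with -0.15 and Fabp7 with 0.11. None of the 6 astrocyte markers was a DEG, although all 6 had a log2FC above 0 (median 0.10), and the part of glial number in these values was not tested.

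Of the genes of the cell cycle, all 26 measured had a log2FC above 0, with a median of 0.17, and 3 rose. The shares over all genes tested were 50% with a log2FC above 0 and 1.22% that rose. Aurkb, a mitotic kinase, was at 307, 331 and 304 with DMSO and at 389.8, 427 and 434 with MMF (log2FC 0.41, adjusted p = 0.0152). The spindle factor Tpx2 had a log2FC of 0.34 (adjusted p = 0.0125) and the topoisomerase Top2a one of 0.20 (adjusted p = 0.0497), which rose to 0.128 without library pair 2 and 0.167 without pair 3. The groups did not overlap in any of the 3 genes. DESeq2 with the block called none of the 26. The 26 genes summed to 664 to 699 CPM with DMSO and to 743 to 777 CPM with MMF, and to 685 to 931 CPM in the ethanol libraries of 24 h.

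The 24 DEGs that fell changed little, and no list held more than 1 of them. Reln, the secreted guidance protein reelin of Cajal-Retzius cells and interneurons (chr4:12736130-13162211), was at 5917, 6964 and 5940.1 with DMSO and at 4538, 5704 and 5467 with MMF (log2FC -0.26 ± 0.05, adjusted p = 0.0118). Smoc1, a secreted calcium-binding protein, was at 1539.7, 1617 and 1389 with DMSO and at 1092, 1043 and 1294 with MMF (log2FC -0.41, the largest fall). In both genes every MMF library lay below every DMSO library, and pair 3 differed least. Pik3r1, the regulatory subunit of phosphoinositide 3-kinase, fell by 0.22 on the log2 scale, and DESeq2 with the block called 2 of the 24, Reln and Pik3r1. The chromatin genes Atrx (log2FC -0.18) and Jmjd1c (-0.25) and the transcription factor Foxp1 (-0.31) were further DEGs, as was Pdgfra, the receptor of oligodendrocyte precursors (-0.23), the 1 DEG of 7 genes of that lineage. Grin2b, a subunit of the NMDA receptor, fell by 0.27, and Gabrg1, a subunit of the GABA receptor, rose by 0.30, as the 2 DEGs of 36 glutamate and GABA receptor genes. Without library pair 3 limma called 4 of the 36, without pair 2 it called 1, and DESeq2 with the block called none. The call was lost without library pair 2 for Atrx (adjusted p = 0.078), Foxp1 (0.113) and Gabrg1 (0.216), without pair 3 for Atrx (0.0862) and without pair 1 for Grin2b (0.0913).

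Other processes held few DEGs or none. For comparison, 1.22% of all genes tested rose, 0.171% fell and 50% had a log2FC above 0. In sterol synthesis and uptake, all 24 genes measured had a log2FC below 0 (median -0.09), and Lss, lanosterol synthase, was the 1 that fell (log2FC -0.18, adjusted p = 0.0404, and 0.156 without library pair 2). The median was -0.22 in pair 2 against -0.04 in pairs 1 and 3, and without library pair 1, 2 or 3 the calls numbered 7, 0 and 3. Of 25 genes of the ATF4 and amino acid response, the translation repressor Eif4ebp1 (log2FC 0.41) and Ddit4 (0.24) rose, and lost the call without library pair 2 (Eif4ebp1, adjusted p = 0.101) or 1 (Ddit4, 0.0585). The small heat shock protein Hspb8 (log2FC 0.58) was the 1 DEG of 19 cytosolic heat shock genes. Without library pair 3 these calls numbered 4 in the ATF4 list and 3 in the heat shock list, and DESeq2 with the block made none in either. No gene passed the test among 19 of the endoplasmic reticulum, 20 of the tricarboxylic acid cycle, 23 immediate early genes, 23 of synaptic vesicles, 19 targets of p53, 11 of NF-kB and 13 of the mitochondrial genome. In these 7 lists the medians lay between -0.05 and 0.08. In the fatty acid list Me1, counted above, was the 1 DEG of 11.

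**Figure D4:**
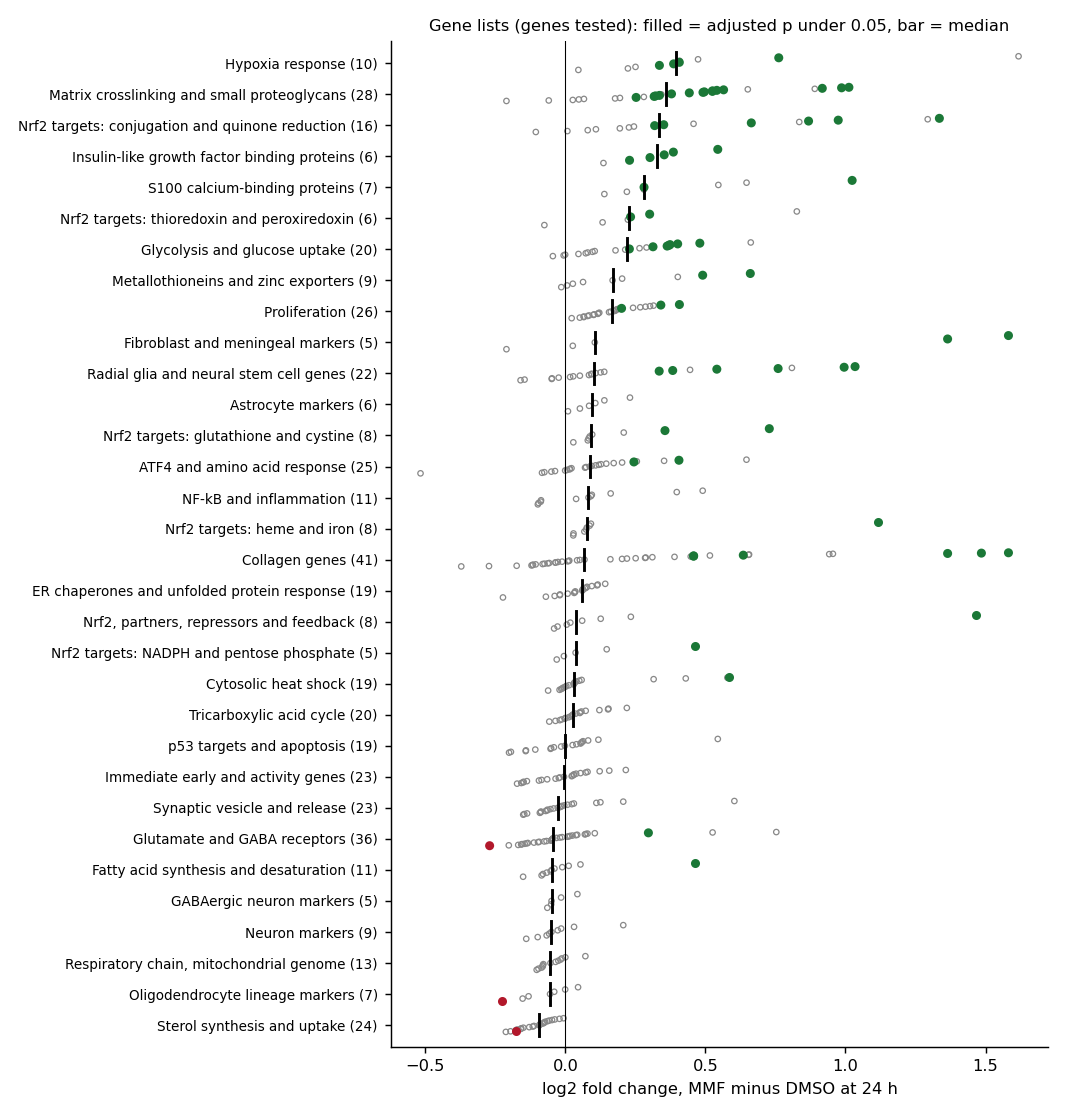
Log2FC (MMF minus DMSO, 24 h) of the genes of each list with 5 or more genes tested (number in brackets), where filled points are DEGs and bars are medians. Medians run from -0.09 for sterol synthesis to 0.40 for the hypoxia response, and the lists for radial glia, matrix, collagens, IGFBP and S100 genes were made after results had been seen.

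The same comparison after 4 h asked how early these changes arise. At 4 h no gene was a DEG by limma (0% of 13929 tested), with 132 at an unadjusted p below 0.05 (0.948%), and DESeq2 with the block called 1, Hmox1. Hmox1 had a log2FC of 1.06 at 4 h (95% interval 0.77 to 1.35, adjusted p = 0.117 by limma) and of 1.11 at 24 h. Without library pair 2, 115 genes were called at 4 h, 106 of them lower. Nqo1 had a log2FC of 0.05 (-0.18 to 0.28) at 4 h, Gsta1 0.18 (-0.07 to 0.43), Gstp1 0.20 (0.03 to 0.37) and Aox1 0.19 (-0.04 to 0.42). The median log2FC at 4 h was -0.03 for glycolysis, 0.02 for hypoxia and 0.06 for proliferation. Some other lists lay away from no change at 4 h, near their 24 h value or not. The median was -0.13 for sterol synthesis and uptake, close to the -0.09 at 24 h. It was -0.36 for immediate early genes, against -0.01 at 24 h, and -0.26 for the 5 fibroblast and meningeal markers, against 0.10.

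The difference of the effects at 24 h and 4 h was then tested in the 12 libraries. No gene passed by limma (0% of 14276 tested), with 351 at an unadjusted p below 0.05 (2.46%). The difference was 1.16 on the log2 scale for Gsta1 (95% interval 0.78 to 1.53, adjusted p = 0.168), 0.92 for Nqo1 (0.47 to 1.37) and 0.06 for Hmox1 (-0.42 to 0.54). DESeq2 with the block called 2 genes, Gsta1 and Aox1, and a block for each number within each time, an alternative chosen after seeing the data, called 3, Nqo1, Gsta1 and Aox1. For Col1a1 the interval ran from 0.31 to 2.95 and for Vegfa from 0.05 to 0.63, with adjusted p-values of 1.

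DMF, the dimethyl ester, differs from MMF by 1 more methyl ester group, and the 2 compounds were given at the same dose of 30 µM for 24 h. This is the 1 pair of fumarates compared here. The libraries of MMF and DMSO also enter the comparisons above, so the values below are not independent of them. Between the compounds, 1737 protein-coding genes were DEGs (12.3% of 14123 tested), 702 higher (4.97%) and 1035 lower (7.33%) with DMF than with MMF. Against DMSO, DMF gave 1800 DEGs (13% of 13875 tested), 810 higher (5.84%) and 990 lower (7.14%). Leaving out library pair 2 or 3 gave 951 and 2712 DEGs between the compounds and 379 and 2849 against DMSO.

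Many Nrf2 targets were higher with DMF than with MMF. Of the 51 genes of the 6 lists, 23 were higher and 3 lower, with a median difference of 0.21 on the log2 scale. Nqo1 exceeded its level with MMF by 1.38 (95% interval 1.13 to 1.63), Gsta1 by 1.01 (0.79 to 1.23), Gstp1 by 0.89 (0.74 to 1.04), Hmox1 by 1.97 (1.19 to 2.75) and Srxn1 by 2.22 (1.63 to 2.82). Against DMSO, Nqo1 had a log2FC of 2.35 with DMF and 0.97 with MMF, Hmox1 3.09 and 1.11, and Slc7a11 2.17 and 0.73. Aox1 (difference 1.05) and Ddit4l (2.05) were also higher with DMF. Not each gene followed: the difference was 0.06 for Mt2A (-0.13 to 0.25), 0.09 for Mgst1 (-0.21 to 0.39) and 0.07 for Vim (-0.17 to 0.30), which were not called, and Gstm5 was lower with DMF (-0.44).

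Among the glycolysis, hypoxia and matrix genes the differences called were mostly in the other direction. Of the 20 glycolysis genes 12 were lower and 1 higher, with differences of -0.52 for Pgk1 (-0.63 to -0.40) and -0.46 for Ldha (-0.58 to -0.34). Against DMSO, Pgk1 had a log2FC of -0.15 with DMF (adjusted p = 0.304) and 0.37 with MMF, and Ldha -0.09 and 0.36. Of the 9 hypoxia genes that passed the filter in this comparison, 5 were lower with DMF and none was higher. Vegfa, among the 5, differed by -0.59 (-0.76 to -0.42). In the matrix list 9 of 28 genes were lower and none higher, among them Bgn (-0.98) and Fmod (-1.13), and Col1a1 differed by -1.02 (-1.33 to -0.71). That list was made after the rise with MMF had been seen. The same MMF libraries enter this difference, so a lean towards lower with DMF was in part built in. Against DMSO, 5 of the 28 matrix genes were higher and 1 was lower with DMF, with a median log2FC of 0.03.

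Of the 26 cell-cycle genes, 25 were lower with DMF than with MMF, with a median difference of -1.14. Top2a had a log2FC against DMSO of -1.47 with DMF and 0.20 with MMF, and Aurkb -0.72 and 0.41. The 26 genes summed to 339 to 397 CPM with DMF against 664 to 699 CPM with DMSO at 24 h. Pdgfra stood at -1.56 with DMF and -0.23 with MMF, a difference of -1.33 (-1.53 to -1.13). Lists with no DEG for MMF differed as well: 13 of 23 immediate early genes and 12 of 19 p53 targets were higher with DMF than with MMF and none was lower. In the sterol list, where Lss fell with MMF, 12 of 24 genes were lower and 1 was higher with DMF than with MMF.

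**Figure D5:**
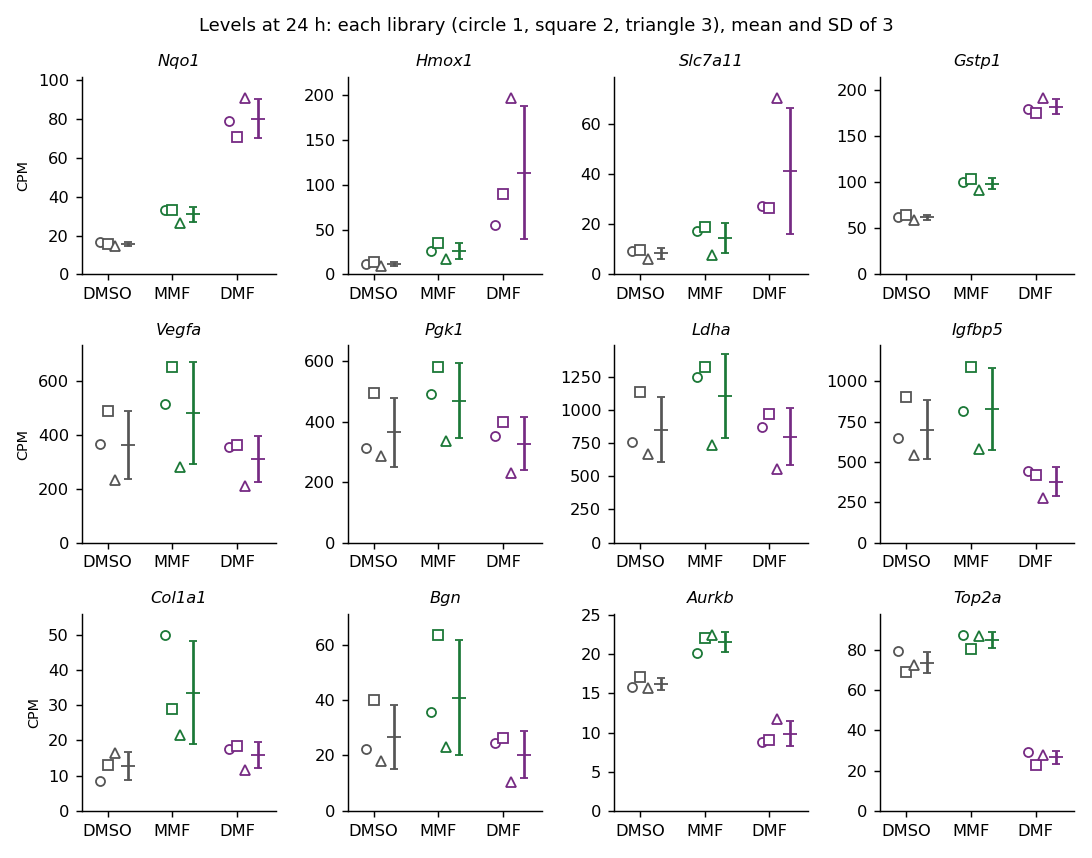
Levels (CPM) of 12 genes in the 3 libraries each of DMSO, MMF and DMF at 24 h (circle 1, square 2, triangle 3), with the mean and SD of 3 beside them and each axis starting at 0. The means of Nqo1, Hmox1, Slc7a11 and Gstp1 step up from DMSO to MMF to DMF, while Top2a is highest with MMF (80.3 to 87.5 CPM) and lowest with DMF (22.9 to 29.1 CPM).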

How the data were processed

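Poly(A) RNA was sequenced from rat hippocampal cultures in 30 libraries, 6 of which (DMSO and MMF at 24 h) make the main comparison. Per the labels and the methods of the study, reads were checked with FastQC 0.12.1, trimmed with Cutadapt 4.4 and Trimmomatic 0.39, aligned to mRatBN7.2 with HISAT2 2.2.1, and counted on Ensembl genes with HTSeq 2.0.3. The strand setting of the counting and its treatment of reads shared by genes are not given in the sources used here. The deposited signal values are counts that the authors divided by a DESeq2 1.40.2 size factor per library within each table of 6 libraries. Of 19 tables given, 7 were used, and the authors' fold changes and p-values, which the tables also hold, were not. Every value of the tables used was a whole multiple of 1 step (100% of 842046 values, tolerance 0.01), so whole reads were recovered, and 0 reads differed between tables.

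The test was limma 3.58.1 (R 4.3.3) with empirical Bayes moderation and a trend of the variance on the mean, applied to log2(value + 1) with the library number as a block, so a log2FC understates the change of low genes. The filterByExpr function of edgeR 4.0.16 removed genes with few recovered reads. Benjamini-Hochberg adjustment covered the 14137 genes left, of which the 14038 protein-coding ones are reported. DEGs have an adjusted p below 0.05. Tests are two-sided, and intervals are 95% intervals of the fit. The fits were also run on counts simulated with the same spread for all genes, which does not show how they perform on these cultures. The difference between times was fitted to 12 libraries on size factors of those libraries. CPM values come from the recovered reads of all 30 libraries with TMM scaling and are used for levels only. The numbers paired the libraries, since all 3 same-number correlations exceeded 0.1 and the samples are described as independent experiments. Nothing says that libraries came from separate animals, so p-values measure the spread between these cultures.

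Members, lists and named genes were chosen with earlier results of these data known. There were 31 lists by function or cell type, and 2 lists and 3 gene families were added later. Named genes are those of the study, the 10 that rose and 10 that fell with the smallest p, the 5 of each direction with the largest log2FC, for each list up to 4 DEGs of each direction or else 2 genes, and Hcar2, 78 in all. Others were named after their values were seen, and a few genes that the rule names are not reported here. Promoters (RefSeq, GRCr8) were matched by Ensembl identifier, or else by symbol or synonym, and their coordinates are not those of mRatBN7.2. Plots were drawn with Python 3.11.15, NumPy 2.4.6, pandas 2.3.3 and matplotlib 3.10.9. Alternatives were DESeq2 1.42.0 and edgeR's quasi-likelihood test on the recovered reads, no block, other scaling, filter, pseudocount or threshold, the spread of all libraries, and leaving out each replicate.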

Additional observations from a re-analysis of the deposited data

How the results depend on the processing

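For MMF against DMSO at 24 h, the 195 DEGs became 51 by DESeq2 with the replicate block, 1 without the replicate block, 8 by DESeq2 without it (an alternative chosen after seeing the data), 3 with the spread of all 30 libraries, and 59 with a log2FC above 0.5 or below -0.5. Other scaling, filter, pseudocount and edgeR's test with the block gave 130 to 250. Leaving out 1 replicate pair gave 218 to 516, and 102 of the 195 were called without each pair in turn. None of the 195 changed sign under the 12 alternatives. Of the 51 named genes that were DEGs, 50 were no longer called by limma without the block, 48 with the spread of all libraries and 27 by DESeq2 with the block, which gave 2 more no adjusted p. At 4 h the count of 0 became 1 by DESeq2 with the block and 3 to 115 with 1 pair left out. The difference between times went from 0 to 2 by DESeq2 and to 3 with a block within each time, and stayed at 0 with any pair left out. DMF against MMF gave 1737 DEGs, 1124 by DESeq2, 505 without the replicate block and 951 to 2712 with 1 pair left out. DMF against DMSO gave 1800, 1114, 554 and 379 to 2849 in the same order. With a pair left out 1 residual degree of freedom remains per gene. The cause of these changes was not tested. Genes with few reads, such as Srxn1 and Osgin1, had the widest errors of the Nrf2 targets named.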

Other observations

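Small secreted and calcium-binding families, grouped after their values had been seen, held further changes with MMF at 24 h. Over all genes tested, 1.22% rose and 50% had a log2FC above 0. Of the 6 insulin-like growth factor binding proteins measured, 5 rose (3 without library pair 2, and 2 by DESeq2 with the block) and none fell, with a median log2FC of 0.33. Igfbp2, the form made by glia and neural precursors, was at 7287, 9373 and 6798 with DMSO and at 9042, 12071 and 8856 with MMF (log2FC 0.35 ± 0.04, adjusted p = 0.00026 by limma). Igfbp5 had a log2FC of 0.23, Igfbpl1 of 0.54, and Igfbp4 (0.30) and Igfbp7 (0.39) lost the call without library pair 2 (adjusted p = 0.166 and 0.111). With DMF, 4 of the 6 were lower than with MMF and none was higher, Igfbp5 by a difference of -1.11 (95% interval -1.29 to -0.93). The MMF libraries of this difference also enter the comparison with DMSO.

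Of 7 measured S100 genes, which encode small calcium-binding proteins, S100a11 and S100a16 rose and all 7 had a log2FC above 0 (median 0.28). S100a11 was at 25.2, 40.3 and 30.0 with DMSO and at 69.4, 86.7 and 44.8 with MMF, so the groups did not overlap (log2FC 1.02, adjusted p = 0.026 by limma). Without library pair 3, 5 of the 7 were called, and without pair 1 or by DESeq2 with the block, 1 was.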
